A study of Rattus norvegicus with 10 samples.

Results

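The mitochondrial ribosomal protein genes were taken as every gene symbol in the count table that begins with Mrpl or Mrps followed by a number. The rule found 69 of the 17168 symbols, 41 beginning with Mrpl and 28 with Mrps, and all 69 passed the filter on low counts that left 11791 genes to test. Sorted by the ribosomal particle their proteins belong to, 43 encode proteins of the large subunit and 25 proteins of the small subunit, because the products of Mrps18a and Mrps30 sit in the large subunit despite their names. The remaining symbol, Mrps36, encodes a component of the 2-oxoglutarate dehydrogenase complex and not of the ribosome. It matches the rule by its symbol and is kept in every count of the 69.

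The mitochondrial ribosome translates the few proteins that mitochondrial DNA encodes, all of them core subunits of the respiratory chain and the ATP synthase. Its ribosomal RNA is made inside the mitochondrion, but every one of its proteins is encoded in the nucleus, made by cytosolic ribosomes and imported. Some of these proteins descend from bacterial ribosomal proteins and others arose with the mitochondrion, and inherited defects in several of them cause respiratory chain deficiency, often with brain disease.

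The animals were 10 female TgF344-AD rats, which carry transgenes that model Alzheimer's disease, driven by the mouse prion promoter, killed at 11 months of age. An untreated group of 5 ate ordinary rodent chow. The RG2833 group of 5 ate chow holding 750 mg of RG2833 per kg, coloured with a food dye, from 5 months of age for 6 months. RG2833 inhibits the histone deacetylases HDAC1 and HDAC3. Both groups carry the transgenes, so the comparison describes the drug in this model only, and the samples are mRNA libraries of whole left hippocampus, 1 per animal.

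Library totals ran from 8764245 to 11311652 estimated counts, and the 69 genes together held 20659 to 28765 counts per library. Levels are in CPM, the count of a gene per library of equal size, with sizes set by TMM, which takes most genes as equal between libraries. Markers of hippocampal excitatory neurons summed to between 4345 and 6962 CPM, and the granule cell marker Prox1 and the CA1 markers Wfs1 and Fibcd1 had counts in every library. Wfs1 varied widely, at 588 CPM in untreated animal 4, 63.9 to 88 CPM in the remaining 4 untreated animals and 108 to 605 CPM under RG2833. Neurod2, of excitatory neurons, was at 189 CPM in untreated animal 4 and 69.5 to 97.8 CPM in the other 4. Under RG2833 it was at 143 to 222 CPM. Wfs1 and Neurod2 were singled out after their values were seen. Ribosomal RNA loci took 2.70% to 5.36% of counts in the untreated group and 1.13% to 1.96% in the RG2833 group, with no overlap. Untreated animal 1 stood apart by its choroid plexus markers (3 of the 7 listed passed the filter), which summed to 2408 CPM there, to 8.62 to 24.4 CPM in untreated animals 2 to 5 and to 5.82 to 43.8 CPM under RG2833. In whole tissue, fewer cells of a type and less RNA per cell cannot be told apart.

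Most of the genes had lower levels under RG2833, by a small amount. Of the 69, 58 had a log2 fold change below 0 and 11 above 0, and the median was -0.20. Over all 11791 tested genes 50.6% were below 0 and the median was -0.0035. With edgeR's quasi-likelihood test and Benjamini-Hochberg adjustment over all tested genes, 6 of the 69 were called at an adjusted p under 0.05. All 6 were lower: Mrps35, Mrps36, Mrpl17, Mrps18c, Mrpl30 and Mrpl13. That is 8.7% of the members, where 2.67% of all tested genes were called lower and 5.08% were called in either direction. No member was called higher, where 2.41% of all tested genes were. At an unadjusted p under 0.05, 2 members were higher, against 11.8% of all tested genes.

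Before adjustment, 31 members had a p under 0.05 and were lower, against 12.7% of all tested genes. In 6 members every RG2833 animal lay below every untreated animal, which held for 3.47% of all tested genes. In 2 members, Mrpl4 and Mrps2, every RG2833 animal lay above every untreated one, against 3.8% of all tested genes, so their number was not above the background. The interquartile range of the members' log2 fold changes ran from -0.29 to -0.07.

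**Figure D1:**
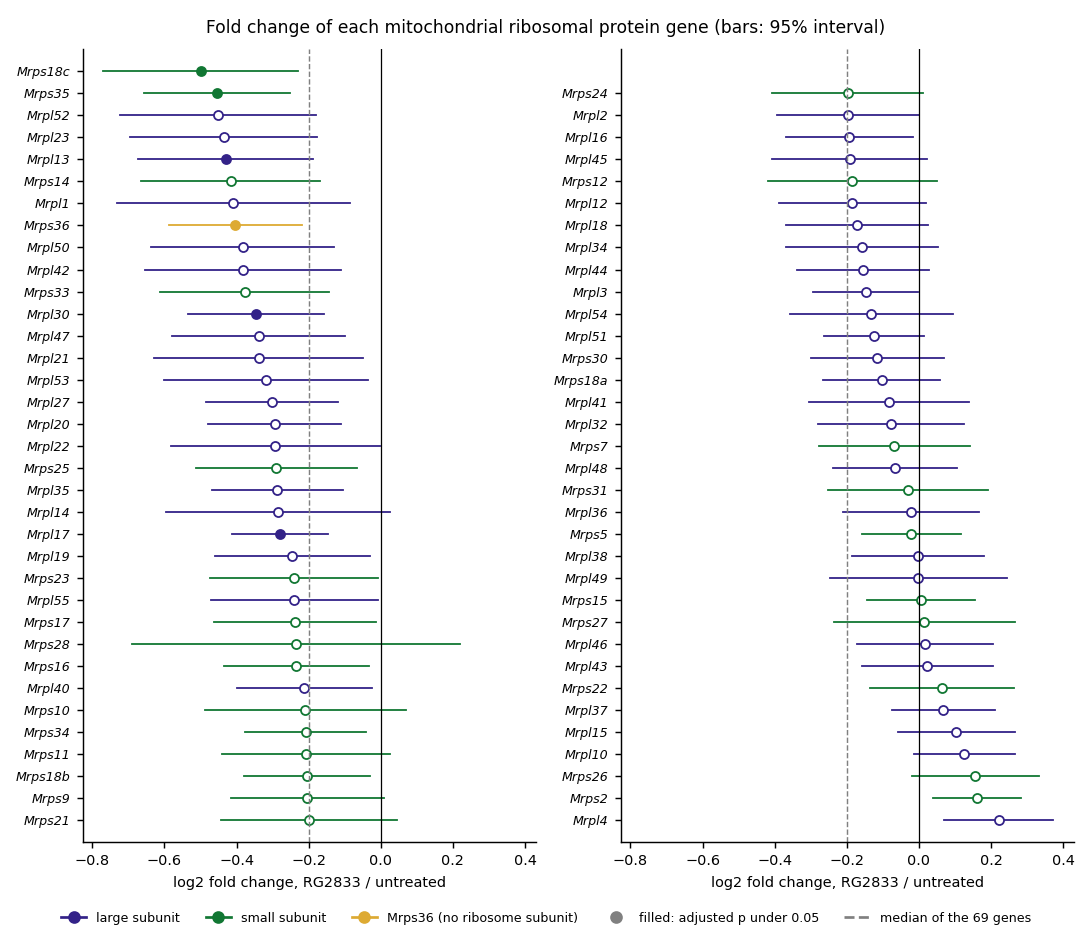
Log2 fold change of RG2833 over untreated for each of the 69 genes, with its 95% interval from edgeR (5 animals per group), coloured by ribosomal subunit, filled where the adjusted p was under 0.05. The points run from -0.50 for Mrps18c to 0.22 for Mrpl4, 58 of them left of 0, and the dashed line marks their median of -0.20.

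Summed in each animal, the 69 genes gave 2798, 2593.5, 2665.5, 2364.6 and 2326.5 CPM in untreated animals 1 to 5. Under RG2833 the sums were 2392.2, 2347.1, 2254.9, 2333.6 and 2161.4 CPM. Untreated animals 1, 2 and 3 lay above every RG2833 animal, while untreated animals 4 and 5 lay within the range of the RG2833 group, so the groups overlapped. The means were 2550 ± 201 CPM (SD, n = 5) and 2298 ± 90.9 CPM (SD, n = 5), a difference of -9.88%.

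The sums of the large and the small subunit were high in the same animals. The large subunit genes summed to 1611 ± 125 CPM (SD, n = 5) in the untreated group and 1448 ± 54.1 CPM (SD, n = 5) under RG2833. The small subunit genes summed to 893.6 ± 72.0 and 815.3 ± 37.9 CPM (SD, n = 5 each). Untreated animal 1 had the highest value of all 10 animals in 31 of the 69 genes (44.9%), and RG2833 animal 5 had the lowest in 23 (33.3%). Among all tested genes the same animals were highest in 15.5% and lowest in 11.5%.

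**Figure D2:**
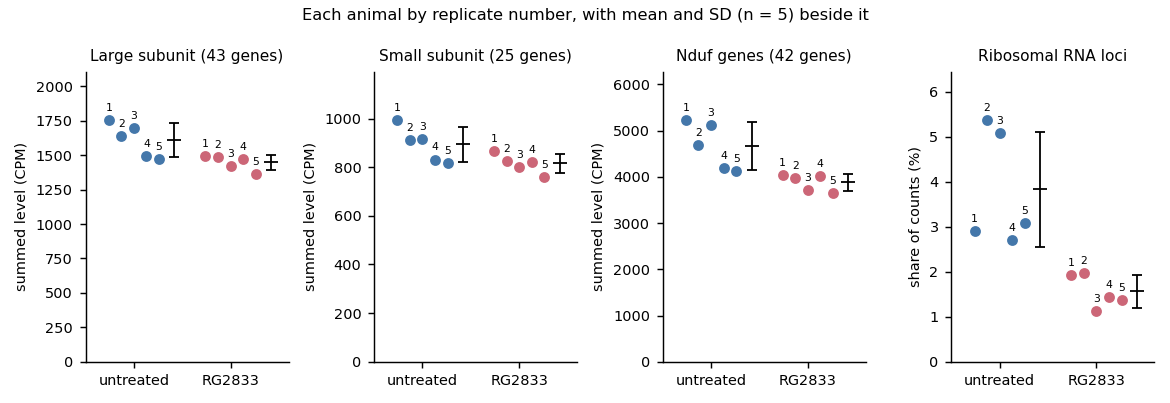
Summed CPM of the large subunit genes, the small subunit genes and the Nduf genes of respiratory complex I, and the ribosomal RNA share of all counts, in each animal (points numbered by animal), with mean and SD (n = 5) beside each group. In both subunit panels untreated animals 4 and 5 sit within the RG2833 range, while the Nduf sums and the ribosomal RNA share do not overlap between the groups.

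The spread between animals of 1 group was smaller for these genes than over all tested genes, which were not matched to them for counts. The median within-group SD of log2 CPM was 0.139 for the 69 genes and 0.191 for all tested genes. Untreated animals varied more than RG2833 animals in 57 of the 69 genes (82.6%), as they did in 75.6% of all tested genes.

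Mrps35, a small subunit protein with no bacterial counterpart, had the smallest p of the 69. Its levels were 36.4, 37.7, 33.8, 32.2 and 28.7 CPM in untreated animals 1 to 5 and 26.7, 23.7, 25.01, 26.1 and 21.6 CPM under RG2833. Every RG2833 animal lay below the lowest untreated animal. The log2 fold change was -0.45 (SE 0.094, edgeR adjusted p = 0.0239), a level 27.0% lower. Its estimated counts were not whole numbers in any library, so some of its reads were shared out by RSEM between this gene and another locus, and its level is uncertain to that extent. Of the 69 members 11 had such counts (15.9%, against 17.5% of all tested genes), 7 of them in all 10 libraries. Of the members named below, Mrpl52 had them in 10 libraries, Mrpl48 in 9 and Mrps15 in 2.

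Mrps36, which holds the dihydrolipoamide dehydrogenase component to the core of the 2-oxoglutarate dehydrogenase complex of the citric acid cycle, stood at 51.5, 43.9, 50.04, 41.8 and 39.7 CPM in untreated animals. It stood at 32.9, 35.7, 32.8, 36.0 and 34.1 CPM under RG2833. The groups did not overlap, and the RG2833 animals were close together (SD 1.51 CPM, against 5.17 CPM in the untreated group). The log2 fold change was -0.40 (SE 0.085, edgeR adjusted p = 0.0257). Without it the ribosome proper had 5 called genes among 68.

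Of the large subunit, Mrpl17, a homolog of a bacterial protein near the exit of the nascent chain tunnel, had the smallest log2 fold change of the 6 and the smallest SE. Its levels were 65.8, 62.1, 71.1, 62.3 and 62.3 CPM in untreated animals and 53.1, 52.6, 54.9, 52.1 and 53.7 CPM under RG2833. The 5 RG2833 values lay within 3 CPM of each other and below all untreated values. The log2 fold change was -0.28 (SE 0.061, edgeR adjusted p = 0.0282).

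Mrpl30, another homolog of a bacterial large subunit protein, was at 34.0, 32.1, 30.4, 29.1 and 25.5 CPM in untreated animals. Under RG2833 it was at 24.8, 22.7, 24.8, 23.3 and 23.1 CPM. The groups did not overlap, but untreated animal 5 was within 1 CPM of the highest RG2833 animal. The log2 fold change was -0.35 (SE 0.087, edgeR adjusted p = 0.042).

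Mrpl13 is the homolog of a bacterial protein that binds early in assembly of the large subunit. It stood at 39.1, 41.9, 45.0, 31.9 and 33.2 CPM in untreated animals and at 33.5, 28.0, 25.6, 28.9 and 25.8 CPM under RG2833. The groups overlapped: RG2833 animal 1 was above untreated animals 4 and 5. The log2 fold change was -0.43 (SE 0.112, edgeR adjusted p = 0.0476). With the ribosomal RNA share in the fit its direction turned, to 0.0336.

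Mrps18c is 1 of 3 paralogs descended from a single bacterial small subunit protein. Its fall was the largest of all 69, -0.50 on the log2 scale (SE 0.125, edgeR adjusted p = 0.0412). Untreated animals 1 to 5 had 28.1, 22.6, 23.9, 18.9 and 18.1 CPM, and RG2833 animals 16.03, 15.7, 17.8, 14.4 and 14.96 CPM. The groups did not overlap, though untreated animals 4 and 5 were close to the highest RG2833 animal. It keeps the place of that protein, while its paralogs occupy other places in the ribosome, are counted below as mitochondria-specific for that reason, and were not called. Mrps18b, in the small subunit, had a log2 fold change of -0.21 (95% interval -0.38 to -0.03, adjusted p = 0.142), and Mrps18a, in the large subunit, -0.10 (95% interval -0.27 to 0.06, adjusted p = 0.414). The 3 intervals overlap, and the difference between the paralogs was not tested.

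**Figure D3:**
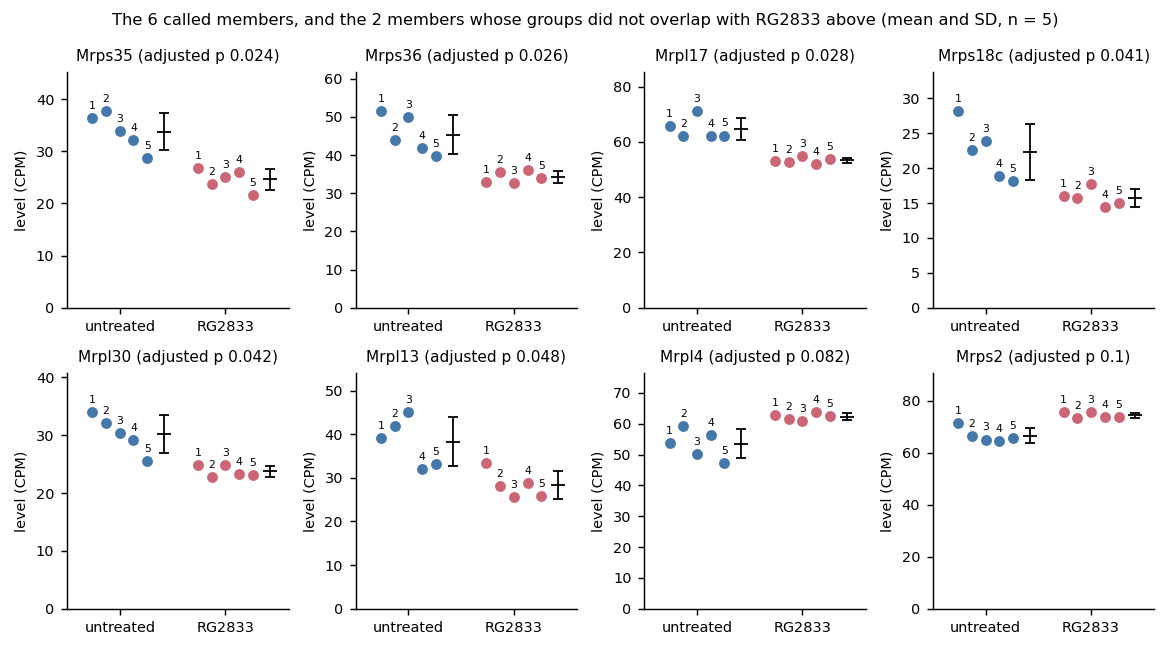
CPM of each animal (numbered points; mean and SD beside each group, n = 5) for the 6 genes called lower and for Mrpl4 and Mrps2, with each gene's axis starting at 0. Mrpl13 is the called gene whose groups overlap, and in Mrpl4 and Mrps2 all 5 RG2833 animals lie above all 5 untreated animals.

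Each of the 6 lost its call in at least 5 of the 10 fits that left out 1 animal. Without untreated animal 1, the library with the high choroid plexus markers, none of the 69 was called (23 members had an unadjusted p under 0.05) and the smallest adjusted p was 0.0542, for Mrps35, while the median log2 fold change of the members was -0.15. In that fit 1.63% of all tested genes were called. Leaving out any other single animal gave between 0 and 17 calls among the members, and between 0.826% and 13.1% of all genes tested, so calls came and went over the whole table. When the log2 share of ribosomal RNA entered the fit, no member was called (0 at an unadjusted p under 0.05), and the median was -0.0691. Over all tested genes only 0.017% were called in that fit. Since that share does not overlap between the groups, its part and the drug's cannot be told apart.

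The next 4 members in order of p did not pass. Mrpl23, at the tunnel exit, was at -0.44 on the log2 scale (SE 0.12, edgeR adjusted p = 0.0549) and Mrps14 at -0.42 (SE 0.114, adjusted p = 0.055). Mrpl52 was at -0.45 (SE 0.126, adjusted p = 0.0579), and Mrpl27, a homolog of a bacterial protein beside the peptidyl transferase centre, at -0.30 (SE 0.084, adjusted p = 0.0587). In each the groups overlapped, with at least 3 of the 5 RG2833 animals below every untreated animal. In Mrps14, for example, untreated animal 4 stood at 22.5 CPM, inside the RG2833 range of 19.5 to 24.8 CPM. Without that animal Mrps14 had the smallest adjusted p of all members (0.00769), and 17 members were called, all lower, as were 6.3% of all genes tested in that fit. Untreated animal 4 is the only untreated animal with Wfs1 and Neurod2 inside the RG2833 range. These were named from the 9 excitatory neuron markers after their values were seen, and not every marker set this animal apart. Neurod6 did so too. Its Slc17a7, at 1801 CPM, lay below the RG2833 range of 1906 to 2344 CPM, and in Tbr1 untreated animal 5 was inside as well. The part of these markers in the calls was not tested.

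The members with the largest differences upward were Mrpl4, Mrps2, Mrps26, Mrpl10 and Mrpl15, and none was called. Mrpl4, whose bacterial homolog lines the tunnel of the nascent chain, had 53.8, 59.2, 50.3, 56.4 and 47.4 CPM in untreated animals and 62.9, 61.4, 60.9, 63.7 and 62.6 CPM under RG2833. The groups did not overlap, and the log2 fold change was 0.22 (SE 0.070, edgeR adjusted p = 0.0816).

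Mrps2, a small subunit protein with a bacterial homolog, had 71.4, 66.3, 65.0, 64.6 and 65.5 CPM in untreated animals and 75.5, 73.5, 75.5, 73.7 and 73.7 CPM under RG2833. The groups again did not overlap, with untreated animal 1 closest to the RG2833 animals. The log2 fold change was 0.16 (SE 0.056, edgeR adjusted p = 0.104). Mrps26 and Mrpl15 had overlapping groups, with log2 fold changes of 0.16 and 0.10.

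By class, the large subunit proteins with bacterial homologs had 3 of 25 genes called lower (12%, against 2.67% of all tested genes) and a median log2 fold change of -0.25. The 18 large subunit proteins specific to mitochondria had none called, 5 lower at an unadjusted p under 0.05 (12.7% of all tested genes), and a median of -0.12. In the small subunit, 1 of 15 genes with bacterial homologs and 1 of 10 mitochondria-specific genes were called lower, with medians of -0.20 and -0.21. Each class had members on both sides of 0. With so few genes a class, 1 call moves its share by several percentage points, and the differences between classes were not tested.

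The 2 proteins of the factor-binding stalk, which recruits translation factors to the large subunit, had log2 fold changes of opposite sign, and neither was called. Mrpl10, which anchors the stalk, was at 0.13 (95% interval -0.01 to 0.27, adjusted p = 0.246), and its estimated counts were not whole in 9 of the 10 libraries. Mrpl12, the flexible stalk protein, was at -0.18 (95% interval -0.39 to 0.02, adjusted p = 0.243). Mrpl1, of the other stalk, which guides tRNA out of the ribosome, was at -0.41 with a wide interval (-0.73 to -0.09, adjusted p = 0.116). Mrps12, at the decoding centre, was at -0.19 (adjusted p = 0.309).

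Among 5 genes in which inherited defects cause respiratory chain deficiency, none was called. Mrps34 had a log2 fold change of -0.21 (adjusted p = 0.123), Mrps16 -0.23 (adjusted p = 0.143), Mrpl3 -0.15 (adjusted p = 0.197) and Mrpl44 -0.16 (adjusted p = 0.273), while Mrps22 was at 0.06 (adjusted p = 0.705). In Mrpl3, 4 of 5 RG2833 animals lay below the lowest untreated animal, at 45.9 to 48.8 CPM against 49.3 CPM. The 2 members linked to apoptosis in other settings, Mrpl41 and Mrps30, were at -0.08 and -0.12, with intervals that cross 0.

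The flattest members were Mrpl49, Mrpl38 and Mrps15, with log2 fold changes of -0.0015, -0.0021 and 0.0054. Their 95% intervals were -0.25 to 0.24, -0.19 to 0.18 and -0.14 to 0.16, so changes of that size in either direction remain possible for each. The direction of these 3 flips between scalings and tests.

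The members with the most counts on average, Mrps2, Mrps26 and Mrpl48, had 478 to 824 counts per library and SEs of 0.056 to 0.081 on the log2 scale. Mrps28 had 23 to 43 counts per library and an SE of 0.21, so a log2 change of the members' median size was not detectable there. Mrps10 and Mrpl1, with 69 to 108 and 71 to 141 counts, had SEs of 0.13 and 0.15.

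RefSeq promoters, 250 bases before to 50 after the start of each gene on GRCr8, were found for 54 of the 69 members, among them 3 of the 6 called genes. They were searched on both strands for the cores of 4 factors known to act at promoters of nuclear genes for mitochondria: GCGCANGCG for NRF1, CCGGAAGT for the ETS family that includes GABPA, AAGATGGC for YY1, and GGGCGG for the Sp1 family. The YY1 letters stood in 14 of the 54 promoters (25.9%), against 5.37% of 8826 promoters of tested genes and 3.17% of all 33469 promoters in the table. The NRF1 core stood in 18.5% of the member promoters (12.7% of tested genes, 5.8% of all), the ETS letters in 14.8% (7.89% and 3.81%), and the Sp1 letters in 51.9% (62.5% and 33.1%). Most of the YY1 matches lay after the start on the strand of the gene, from base 1 (Mrps18a) to base 31 (Mrps10). There the letters are part of the transcript. Those of Mrpl32, Mrpl36 and Mrpl48 lay before the start. A match is a description of the letters and not a binding site.

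The promoters of the 3 called genes with an entry are shown so that the matches can be read in place, with that of Mrps18b as a paralog of Mrps18c that holds the YY1 letters. Capitals mark NRF1, ETS and YY1 matches, on either strand. The NRF1 core is nearly palindromic, so 1 run of capitals can hold a match on each strand.
Mrpl17 promoter, chr1:169575650-169575949, minus strand, GRCr8: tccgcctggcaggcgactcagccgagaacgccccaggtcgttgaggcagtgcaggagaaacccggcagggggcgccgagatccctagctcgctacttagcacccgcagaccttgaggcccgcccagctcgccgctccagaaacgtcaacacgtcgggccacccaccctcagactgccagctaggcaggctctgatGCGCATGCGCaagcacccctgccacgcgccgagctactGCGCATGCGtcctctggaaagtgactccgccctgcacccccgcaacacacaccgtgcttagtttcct
Mrpl30 promoter, chr9:47620977-47621276, plus strand, GRCr8: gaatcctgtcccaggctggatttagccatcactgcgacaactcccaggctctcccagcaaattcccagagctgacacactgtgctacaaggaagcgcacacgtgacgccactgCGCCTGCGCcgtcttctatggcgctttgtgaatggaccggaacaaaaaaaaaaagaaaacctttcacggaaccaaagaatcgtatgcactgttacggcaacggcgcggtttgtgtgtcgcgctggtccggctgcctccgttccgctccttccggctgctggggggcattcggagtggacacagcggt
Mrps18c promoter, chr14:9122857-9123156, minus strand, GRCr8: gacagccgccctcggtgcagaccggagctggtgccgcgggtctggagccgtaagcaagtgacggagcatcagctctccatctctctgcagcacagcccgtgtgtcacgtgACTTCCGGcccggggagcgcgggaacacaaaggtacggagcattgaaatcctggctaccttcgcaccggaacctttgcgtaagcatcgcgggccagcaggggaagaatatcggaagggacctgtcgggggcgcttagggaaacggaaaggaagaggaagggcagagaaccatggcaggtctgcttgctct
Mrps18b promoter, chr20:2842756-2843055, plus strand, GRCr8: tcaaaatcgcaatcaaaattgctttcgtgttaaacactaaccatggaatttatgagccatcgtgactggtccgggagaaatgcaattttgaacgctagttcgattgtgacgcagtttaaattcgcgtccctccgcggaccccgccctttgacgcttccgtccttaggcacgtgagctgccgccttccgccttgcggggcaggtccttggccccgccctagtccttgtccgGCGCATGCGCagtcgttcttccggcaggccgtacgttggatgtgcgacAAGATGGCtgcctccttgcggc
Mrpl17 holds 3 NRF1 matches, of which 2 overlap on opposite strands, and Mrpl30 holds 1. Mrps18c holds 1 ETS match and none for NRF1. Mrps18b holds 2 overlapping NRF1 matches and 1 YY1 match.

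The median log2 fold change was -0.20 both for the 10 members with the NRF1 core and for the 44 without, and -0.22 for the 8 with the ETS letters. Called genes, all lower, were 2 of the 10 with the NRF1 core and 1 of the 44 without, where 2.67% of all tested genes were called lower. The 14 members with the YY1 letters had a median of -0.07 and none was called, against -0.21 and 3 called for the 40 without. These differences were not tested. The gene for the factor itself, Yy1, was higher under RG2833: 29.6, 30.9, 29.0, 33.4 and 34.8 CPM in untreated animals and 39.9, 36.9, 40.4, 36.3 and 39.7 CPM in treated ones. The groups did not overlap, with RG2833 above, as in 3.8% of all tested genes (log2 fold change 0.29, SE 0.075, edgeR adjusted p = 0.0458). Yy1 was called in 2 of the 10 fits that left out 1 animal (adjusted p 0.0261 to 0.119) and was not called with the ribosomal RNA share in the fit.

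Lists of genes that work with the ribosome were read beside the 2.67% of all tested genes called lower and the 2.41% called higher. The 7 mitochondrial ribosomal proteins with symbols outside the rule, among them Dap3, Ptcd3 and Chchd1, were all below 0 with a median log2 fold change of -0.12, and none was called (2 at an unadjusted p under 0.05). Of 22 assembly factors none was called (2 at an unadjusted p under 0.05, near the 12.7% of all tested genes that were lower at that p), with a median of -0.08. Of 14 translation factors 1 was called, lower (7.14%, against 2.67% of all tested genes). This was Mtif2, the mitochondrial initiation factor that places the first tRNA. It had 27.8, 22.1, 22.8, 21.7 and 22.9 CPM in untreated animals and 19.5, 17.8, 18.1, 18.9 and 17.4 CPM under RG2833. The groups did not overlap, with RG2833 below, as in 3.47% of all tested genes (log2 fold change -0.36, SE 0.090, edgeR adjusted p = 0.0427). Mtif2 was called in 2 of the 10 fits that left out 1 animal, and not with the ribosomal RNA share in the fit.

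The translation list had 4 of 14 genes lower at an unadjusted p under 0.05, against 12.7% of all tested genes. Besides Mtif2 these were Slirp at -0.42 (adjusted p = 0.0644), Mtrf1l at -0.40 (adjusted p = 0.117) and Mrrf at -0.17 (adjusted p = 0.181), named after their values were seen. Of the genes picked by role, Tufm, the elongation factor that delivers tRNA, was at -0.06 (95% interval -0.21 to 0.10), Oxa1l, which inserts new proteins into the inner membrane, at 0.04 (-0.10 to 0.17), and Lrpprc, which stabilises mitochondrial mRNA, at -0.03 (-0.17 to 0.11).

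Of 15 genes of mitochondrial transcription and biogenesis only Yy1 was called, higher (6.67%, against 2.41% of all tested genes). At an unadjusted p under 0.05, 5 were higher (11.8% of all tested genes) and 1, Ssbp1, was lower (12.7%). Ssbp1, at a log2 fold change of -0.31, was also named after its values were seen. Nrf1, whose product activates many nuclear genes for mitochondria, had a log2 fold change of 0.37 (95% interval 0.09 to 0.65, adjusted p = 0.108). Gabpa, a subunit of an ETS factor with similar targets, was at 0.11 (adjusted p = 0.517). Tfam, which packages mitochondrial DNA, was at -0.13 (adjusted p = 0.342) and Polrmt, the mitochondrial RNA polymerase, at -0.09 (adjusted p = 0.55). The coactivator Ppargc1a was at -0.04, with 1 untreated animal at 18.9 CPM, the other 4 at 7.59 to 13.1 CPM and the RG2833 animals at 10.8 to 11.8 CPM.

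Of 26 genes of mitochondrial protein import, 4 were called, all lower (15.4%, against 2.67% of all tested genes). At an unadjusted p under 0.05, 10 were lower (12.7% of all tested genes were) and 1, Tomm70a, was higher (11.8% were). Tomm70a, at a log2 fold change of 0.35, was named after its values were seen. Timm8b, a chaperone of the intermembrane space, had a log2 fold change of -0.55 (edgeR adjusted p = 0.0239), and Tomm7, of the outer membrane translocase, -0.50 (adjusted p = 0.038). Pam16, of the import motor, was at -0.42 (adjusted p = 0.04), and Timm17a, of the inner membrane channel, at -0.39 (adjusted p = 0.0342). In all 4 every RG2833 animal lay below every untreated animal, as in 3.47% of all tested genes. Of the 10 fits that left out 1 animal, Timm8b was called in 4, Timm17a in 3, and Tomm7 and Pam16 in 2. None of the 4 was called with the ribosomal RNA share in the fit.

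The cytosolic ribosome had more calls and a median further from 0. Of 83 tested genes of the cytosolic ribosomal protein symbols, 9 S6 kinase genes set aside, 48 were called lower (2.67% of all tested genes were) and none higher, with a median log2 fold change of -0.48. The Nduf genes, which encode subunits and assembly factors of respiratory complex I, had 16 of 42 called lower and a median of -0.25. The Nduf sums were 4121.3 to 5225.6 CPM in the untreated group and 3645.5 to 4047 CPM under RG2833 and did not overlap. The sums of the mitochondrial ribosomal genes overlapped, and so did those of the cytosolic ribosomal proteins. The latter were 19098 to 30785 CPM in the untreated group and 17975 to 19661 CPM under RG2833. The lists come from the same 10 animals and the differences between them were not tested.

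**Figure D4:**
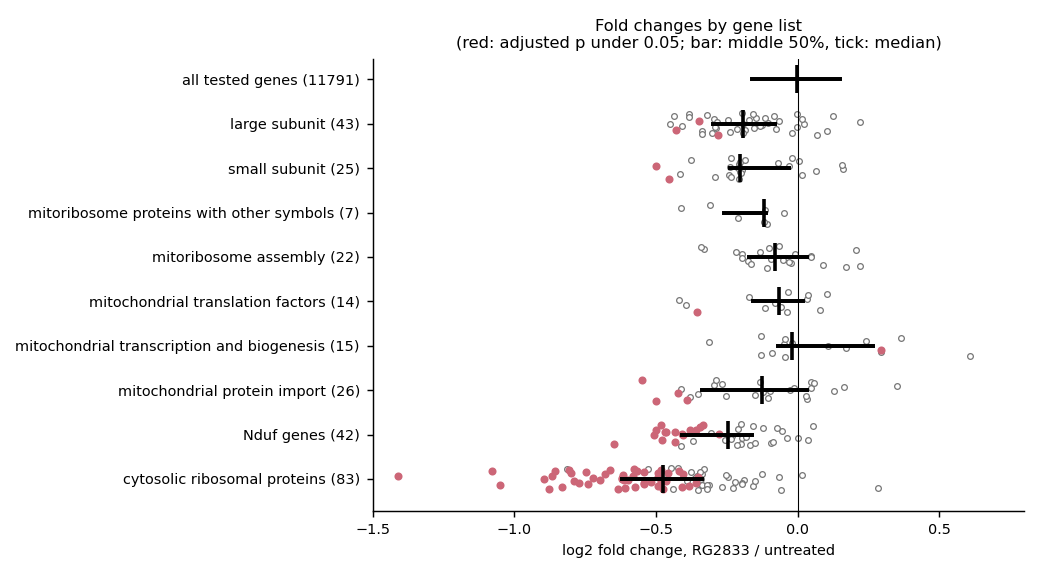
Log2 fold change of each gene by list (points; red where the adjusted p was under 0.05), with the median (tick) and the middle 50% (bar); for all tested genes only the median and bar are drawn. The bars of both mitochondrial ribosomal subunits lie below 0, and their medians lie between those of all tested genes and of the cytosolic ribosomal proteins.

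Levels of cell type markers in the same libraries were as follows. Endothelial and mural markers summed to 245 to 347 CPM in the untreated group and 216 to 243 CPM under RG2833, without overlap. All 7 were below 0, as were 50.6% of all tested genes. None was called, and 4 were lower at an unadjusted p under 0.05, against 12.7% of all tested genes. Excitatory neuron markers summed to 5412 ± 892 and 6562 ± 359 CPM (SD, n = 5 each), and the sums overlapped. Of these markers 8 of 9 were above 0 and none was called. At an unadjusted p under 0.05, 3 were higher, against 11.8% of all tested genes. Of 7 microglial markers 6 were below 0 and 1, Cx3cr1, was above 0. Aif1 was the 1 called, lower, as were 2.67% of all tested genes. At an unadjusted p under 0.05, 2 were lower (12.7% of all tested genes), and the sums overlapped. Of the choroid plexus list, all 3 tested markers were below 0. For Ttr and Clic6 this rests on untreated animal 1: Ttr was at 2381 CPM there, 3.8 to 14.8 CPM in untreated animals 2 to 5 and 3.82 to 38.5 CPM under RG2833. Prlr was called lower (edgeR adjusted p = 0.0393), as were 2.67% of all tested genes. It was at 2.88 to 4.97 CPM in the untreated group and 1.72 to 2.59 CPM under RG2833. Its groups did not overlap, as in 3.47% of all tested genes that were lower. None of the inhibitory neuron, astrocyte, oligodendrocyte or erythroid markers was called (0 at an unadjusted p under 0.05), with 6 of 7, 3 of 7, 0 of 7 and 3 of 3 below 0. The oligodendrocyte sum was 18060 CPM in untreated animal 1 and 5855 to 12830 CPM in untreated animals 2 to 5. No tested marker was at 0 in any library. The part of cell composition in the fold changes of the 69 genes was not tested.

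The members are short genes, and short genes tended to be lower. Their median genomic span on the RefSeq annotation was 6.81 kb, against 24.3 kb for the 11595 tested genes with a span. Over those genes Spearman's rho between span and log2 fold change was 0.157, and over the 69 members it was -0.128. These are correlations across genes measured in the same libraries, which are not independent replicates. Among the 2319 genes with the shortest spans, up to 8.18 kb, the median log2 fold change was -0.06 over all genes and -0.20 over the 39 members there. Among the next 2319 genes, up to 17.6 kb, it was -0.01 over all genes and -0.21 over 18 members. In the main fit 5.56% of the genes in the shortest class and 3.02% of those in the next were called lower. After each animal's trend with span was removed, 13 members were called, 10 lower and 3 higher, and Mrpl17 lost its call. In that fit 6.59% of all tested genes were called, 3.22% lower and the rest higher. The 3 of 69 members called higher are near that last share. Of the calls over all genes 51.1% were higher, against 3 of the 13 among the members. The 3 higher were Mrps26 (log2 fold change 0.28, edgeR adjusted p = 0.0166), Mrpl4 (0.27, 0.0301) and Mrps2 (0.24, 0.0322), and the members' median was -0.14.

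**Figure D5:**
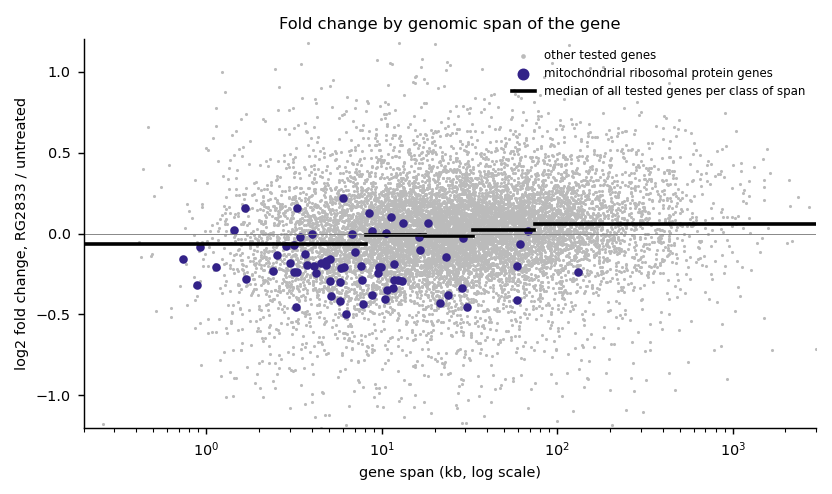
Log2 fold change against the genomic span of the gene (log scale) for tested genes (grey) and the 69 members (dark), with the median of all tested genes in each of 5 equal classes of span as a black line; 83 other genes lie outside the plotted range. In the class of the shortest genes 39 members have a median of -0.20, below the line at -0.06.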

How the data were processed

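Strand-specific mRNA libraries were made from column-purified RNA, per the labels' protocols. The submitters' processing notes name bcl2fastq 2.17, Bowtie2 2.1.0, RSEM 1.2.15, edgeR and the build rn6. The authors deposited RSEM expected counts per gene symbol, not normalized, and a TMM-scaled CPM signal whose columns sum to 967165 to 1036329. Counts were rounded and tested with edgeR 4.0.16 (R 4.3.3): filterByExpr by group, TMM, quasi-likelihood test, all 10 animals, no covariate, Benjamini-Hochberg adjustment over 11791 genes, call at an adjusted p under 0.05. The SE is the fold change over the root of F. Alternatives used DESeq2 1.42.0 and limma 3.58.1, the latter also on the log2 of the deposited signal plus 1 or 0.1. The labels do not say how the replicates were housed or processed, so p-values measure the spread between these animals. Replicates differed by more than counting noise (chi-square per degree of freedom 4.73 to 38.1). Counting noise alone bounds a count of 0 at 3 counts, 0.265 to 0.342 CPM.

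The members and lists were chosen with earlier results of these data known. Named genes are the called members, the 10 with the smallest p, the 5 largest differences each way, the 3 with the most and the 3 with the fewest counts, the 3 flattest, members picked by role, called partner genes and 8 partners picked by role. Cell type names of marker lists come from general knowledge. Gene spans and promoters are of GRCr8, not the build of the counts, and serve as properties of genes. Transcript lengths were not used, so levels are not compared between genes.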

Additional observations from a re-analysis of the deposited data

Results flagged for a closer look

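In 100 groups of 5 values (47 named genes and 3 summed levels in each treatment group), 3 had 1 animal far from the other 4, by a gap of more than 0.71 of the group's range. Chance gives about 5, 1 in 20. In Mrps2, untreated animal 1 was at 71.4 CPM and the others at 64.6 to 66.3 CPM, a gap of 0.745 of the range. In Mrps34, untreated animal 5 was at 38.5 CPM and the others at 45.5 to 47.1 CPM (0.809). In the initiation factor gene Mtif2, untreated animal 1 was at 27.8 CPM and the others at 21.7 to 22.9 CPM (0.793). Without that animal Mtif2 was not called (edgeR adjusted p = 0.0821), and without untreated animal 5 Mrps34 was (adjusted p = 0.0435).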

How the results depend on the processing

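The members' median log2 fold change stayed negative under every alternative, from -0.0691 to -0.229, and moved beyond the spread between animals only with ribosomal RNA share in the model (-0.0691). The number of members called, 6, stayed within 1.5 times with DESeq2 size factors (6), no filter on low counts (4), limma-voom (5), a limma trend fit to the deposited signal (6 and 5) and ribosomal RNA loci and Bc1 removed (6). It was 13 with library totals only, 10 with a mean count of at least 50, 16 with the DESeq2 Wald test (15 lower, and Mrpl4 higher), 13 with the gene span trend removed, 17 at an adjusted p under 0.1 and 0 with the ribosomal RNA covariate. With the replicate number as a block 1 member was called. The numbers name different animals, and deviations of same-numbered animals correlated at -0.319 to 0.151, so the block pairs nothing. Over all genes tested these fits called from 0.017% (ribosomal RNA covariate) to 12.4% (adjusted p under 0.1). Leaving out 1 animal gave 0 to 17 calls, with 0.826% to 13.1% of all genes called: 0 without untreated 1, untreated 3 or RG2833 2, 3 or 5, 1 without RG2833 1, 2 without RG2833 4, 3 without untreated 2, 12 without untreated 5 and 17 without untreated 4. No member was called in all 10 of these fits and 18 were called in at least 1. The median ran from -0.148 to -0.229 there. The causes were not tested.

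The log2 fold changes of 11 named genes changed sign under some alternative. Mrps15 was at -0.00819 with library totals only, -0.00823 with the mean count filter and -0.0018 with ribosomal RNA loci removed. In limma-voom, limma trend (pseudocounts 1 and 0.1) and the replicate block, Mrpl38 was at 0.00567, 0.000122, 0.000219 and 0.00185, Mrpl49 at 0.0145, 0.00749, 0.00811 and 0.009, and Ppargc1a at 0.0409, 0.0243, 0.0318 and 0.0217. With the ribosomal RNA covariate Mrpl38 was at 0.127, Mrpl49 0.271, Mrpl13 0.0336, Mrps12 0.0383, Mrpl48 0.0196, Mrpl41 0.102, Gabpa -0.0298, Polrmt 0.0529 and Tufm 0.00551. With the span trend removed Mrpl38 was at 0.0432, Mrpl49 0.0716, Mrpl41 0.0591 and Tufm 0.0186. Leaving out 1 animal, Mrps15 ran from -0.0226 to 0.0331, Mrpl38 from -0.0572 to 0.0463, Mrpl49 from -0.0656 to 0.0768 and Ppargc1a from -0.165 to 0.198. Depth limits mainly Mrps28, at 23 to 43 counts per library.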
